A study of Mus musculus with 14 samples.

Results

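The unfolded protein response and the folding machinery of the endoplasmic reticulum (ER) were examined through 35 genes in tumours of mice from control mice and from mice deficient in HIF-2α, a transcription factor stabilised in low oxygen and made from the Epas1 gene. The genes are a list by function, and each was represented by the probeset that names it alone and has the highest mean over all 14 arrays. All 35 had such a probeset, of 12393 genes with a platform symbol, and 33 were bright enough to be tested. The study compared 7 arrays from tumours of control mice with 7 from tumours of mice whose genotype is given as Hif2alpha deficient and whose titles say Hif 2alpha Knockdown. Both groups had a mixed 129 SvJ/C57Bl6 background, and "deficient" is used here for the second. The study is known for lung tumours, and Sftpc, the surfactant protein C gene of alveolar type II cells, read 13.85 ± 0.06 in controls and 13.89 ± 0.15 in deficient tumours (log2, SD, n = 7 each). The labels leave out the organ, the age of the mice, the part of Epas1 that was lost and how it was lost.

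Proteins that enter the secretory pathway fold in the ER lumen with the help of chaperones, lectins and enzymes that form disulphide bonds. When unfolded proteins accumulate there, the membrane sensors IRE1 (Ern1), PERK (Eif2ak3) and ATF6 are released from the chaperone BiP (Hspa5) and set off the unfolded protein response. IRE1 splices Xbp1 mRNA, ATF6 is cut to a free transcription factor, and PERK slows translation while ATF4 is made and induces CHOP (Ddit3), and together they raise chaperones, degradation factors and amino acid supply. Secretory epithelia of the lung, which export surfactant and airway proteins, carry a large ER and use this machinery constantly.

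None of the tested members passed the threshold, an adjusted p under 0.05 in limma's moderated test with Benjamini-Hochberg adjustment over all 12701 probesets tested. In the whole fit 5 probesets passed (0.0394%), with 0.0157% higher and 0.0236% lower in deficient tumours. At an unadjusted p under 0.05 stood 4 of 33 members (12.1%), 2 higher and 2 lower in deficient tumours, beside 14.7% of all probesets tested (8.09% higher, 6.57% lower), so the share is near the background. Of the 33 members 16 were higher and 17 lower by the sign of the difference, against 52.6% of all probesets above 0. The median log2 difference, deficient minus control, was -0.0073 over the members and 0.02 over all probesets. Differences ran from -0.78 for Herpud1 to 0.77 for Trib3, and 30 of 33 were smaller than 0.5 in size. The median standard error (SE) of a member's difference was 0.17.

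**Figure D1:**
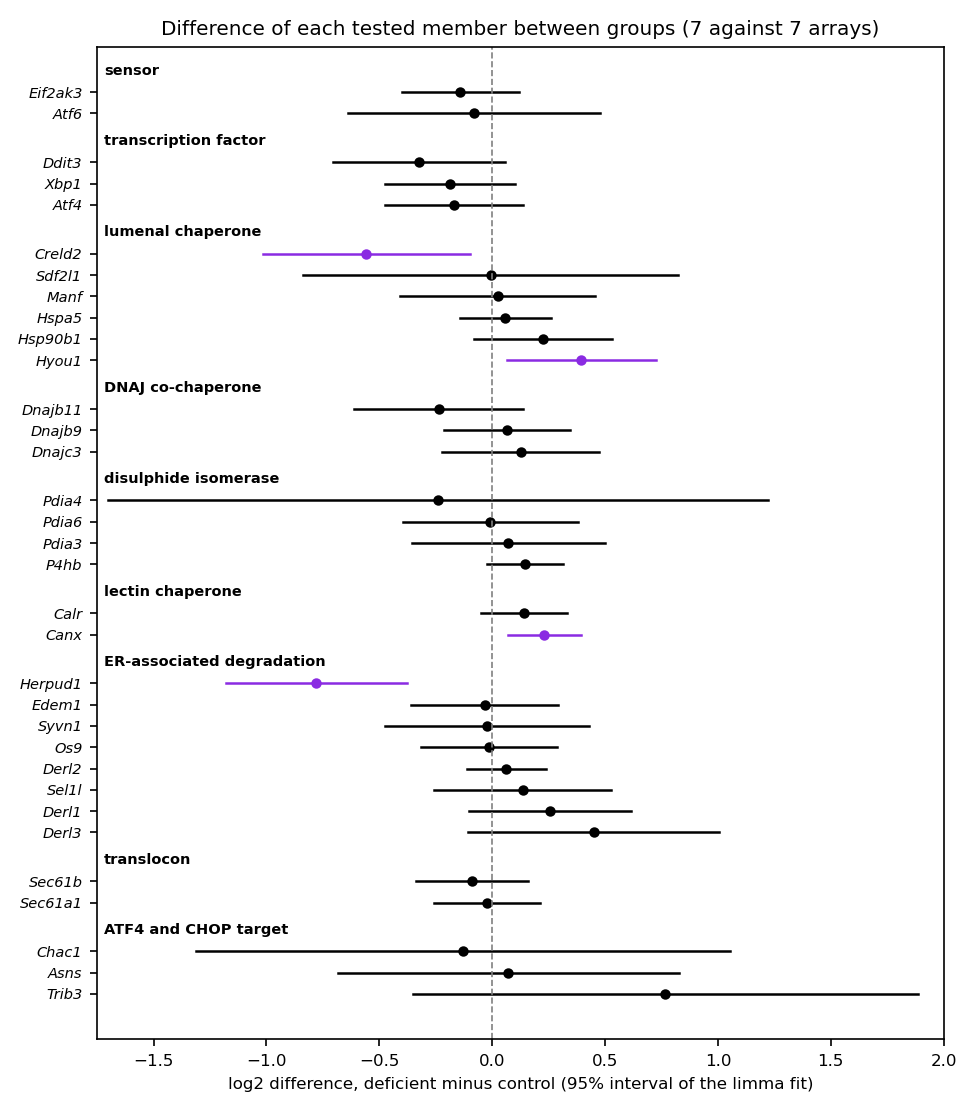
Log2 difference between deficient and control tumours for the 33 tested members, grouped by role, with the 95% interval of the limma fit, unadjusted for the number of genes. Purple marks the 4 members whose interval leaves out 0, namely Herpud1, Creld2, Hyou1 and Canx, and the widest intervals are those of Pdia4, Chac1 and Trib3.

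The arrays themselves differed little in scale, though every deficient array except deficient 4 had a median below that of every control. Medians of single arrays lay between 5.19 and 5.29 for controls and between 5.13 and 5.20 for deficient tumours, and the mean gap between 3' and 5' control probesets, a measure of RNA quality, did not differ between the groups beyond their spread (2.87 and 2.80, two-sided exact permutation p = 0.692). Epas1 itself has 1 probeset, at 5.84 ± 0.69 for controls against 5.65 ± 0.51 (adjusted p = 0.807), and as its place relative to the lost part is unknown it does not check the labels. The descriptions of the arrays carry 6 leading numbers, 2 among controls and 4 among deficient arrays, whose meaning the labels do not state. The number of deficient 2 belongs to that array alone, and the others are shared within a group. No number occurs in both groups, so whatever the numbers mark cannot be fully told apart from the group difference. With these numbers as a random block, 0 probesets passed, 4 members had an unadjusted p under 0.05, and every member's adjusted p lay between 0.989 and 1.000.

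Promoters of the members were read to see what the genes share in sequence, since the response acts through known elements. ATF6 and XBP1 bind the ER stress response element (ERSE, searched as CCAAT and CCACG with any 9 bases between them) together with NF-Y, and a shorter form, ERSE-II (ATTGG and CCACG with any base between them). ATF4 binds the CARE element, searched here by its core TGATGNAA. RefSeq promoters of GRCm38.p6, from 250 bases before to 50 after each start, were found for 30 of the 35 members (not for Atf6, Derl1, Hyou1, Manf or Sec61a1), and both strands were searched. An ERSE stood in 9 of the 30 (30%), against 0.119% of all 32851 promoters and 0.183% of promoters of genes with a tested probeset. Members were counted per gene and these shares per promoter, and the 32851 promoters belong to 27025 genes. ERSE-II stood in Herpud1 and Dnajb11, against 0.0365% of all promoters and 0.0854% of those of tested genes. The CARE core stood in Asns, Chac1, Trib3 and Herpud1 (13.3%, against 3.97% of all promoters and 2.2% of those of tested genes). The UPRE core TGACGTGG stood in 0 of 30, against 0.676% and 0.927%. None of the matches in these promoters overlapped another. The members were listed as genes of this response, so its elements were likely to be found among them, and these shares do not test the list. A match describes these letters in this window and is no proof of binding.

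The matches shown are those of the members on which the values below turn, each with 5 flanking bases, read 5′ to 3′ on the strand of the gene. Capitals mark the fixed letters of the element, which appear as the reverse complement where the match is on the opposite strand.
Herpud1, ERSE-II, chr8:94386372-94386392, plus strand: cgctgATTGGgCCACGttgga
Herpud1, CARE core, chr8:94386312-94386329, plus strand: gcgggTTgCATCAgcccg
Canx, ERSE, chr11:50325795-50325823, minus strand: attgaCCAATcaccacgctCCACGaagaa
Creld2, ERSE, chr15:88819515-88819543, plus strand: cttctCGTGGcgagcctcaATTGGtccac
Hspa5, ERSE, chr2:34772020-34772048, plus strand: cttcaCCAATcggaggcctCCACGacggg
Hsp90b1, ERSE, chr10:86705633-86705661, minus strand: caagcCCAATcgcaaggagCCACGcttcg
Hsp90b1, ERSE, chr10:86705528-86705556, minus strand: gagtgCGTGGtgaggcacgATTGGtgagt
Pdia6, ERSE, chr12:17266486-17266514, plus strand: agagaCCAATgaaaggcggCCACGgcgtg
Asns, CARE core, chr6:7693220-7693237, minus strand: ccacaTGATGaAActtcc
Chac1, CARE core, chr2:119351044-119351061, plus strand: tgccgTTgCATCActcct

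Members with an ERSE stood on both sides by the sign of the difference. Of these 9 genes (Calr, Canx, Creld2, Derl3, Dnajc3, Hsp90b1, Hspa5, Pdia6 and Syvn1) 6 were higher and 3 lower in deficient tumours, with a median difference of 0.13. Only Canx and Creld2 of these had a 95% interval that left out 0. They stood on opposite sides, with the element at 145 and 126 bases before the start. Pdia6 (-0.0076, SE 0.18) and Syvn1 (-0.02, SE 0.21), on the lower side, differed by less than their SE. So did Hspa5 (0.06, SE 0.09) and Dnajc3 (0.13, SE 0.16) on the higher side. The 4 genes with a CARE core likewise lay on both sides, with Trib3 and Asns higher and Herpud1 and Chac1 lower. Of these only Herpud1 had a 95% interval that left out 0. Both genes with ERSE-II, Herpud1 and Dnajb11, were on the lower side.

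**Figure D2:**
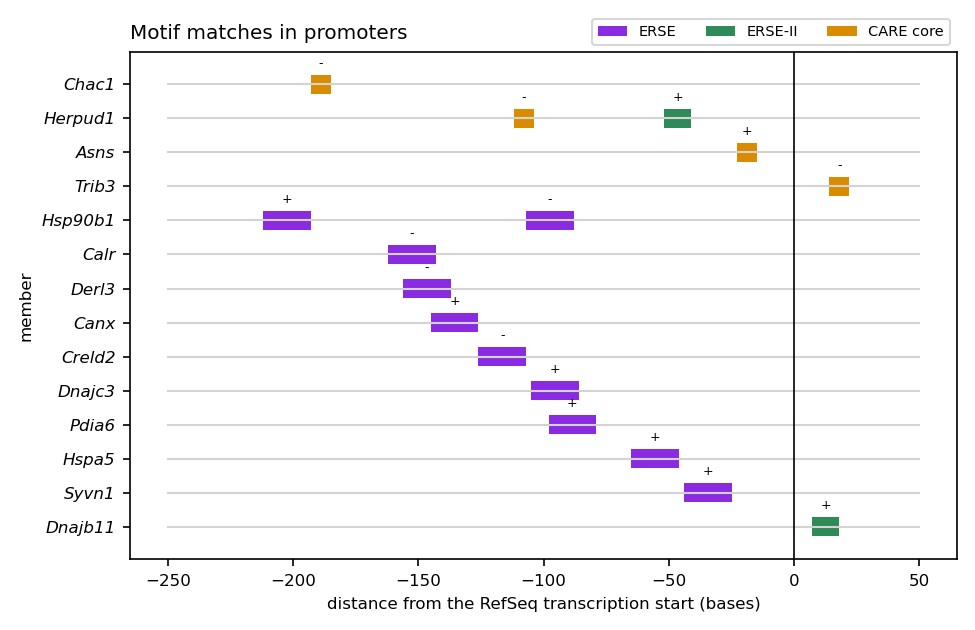
Positions of the motif matches in the promoters of 14 members, as distance in bases from the RefSeq start, with the strand of each match relative to the gene above it. The ERSE matches of 9 genes all lie before the start, and Hsp90b1 holds 2 of them.

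Herpud1, which encodes a membrane protein of the ER that gathers the degradation machinery and is strongly induced in ER stress, had the smallest p of all members. It ran from 11.83 to 12.34 in controls (median 12.13) and from 10.96 to 12.28 in deficient tumours (median 11.12). Of the 7 deficient arrays 6 lay below every control, and deficient 6, at 12.28, lay among the controls. Group values were 12.11 ± 0.21 and 11.33 ± 0.46 (SD, n = 7 each), a difference of -0.78 (SE 0.19, or 1.72-fold lower), with a limma adjusted p = 0.131. Its other probeset differed by the same amount, -0.78 (SE 0.20, adjusted p = 0.132). Without deficient 6 the difference was -0.94 with an adjusted p = 0.0114, the only fit with 1 array left out in which any member passed. Without deficient 3 and 6 it was -0.92 (adjusted p = 0.0241), and over all alternatives the adjusted p ran from 0.00821 to 0.989.

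Other genes of ER-associated degradation, which draws misfolded proteins back to the cytosol for destruction, had no call either. Derl3, a derlin channel gene typical of secretory cells, read 4.26 ± 0.54 and 4.71 ± 0.49 (difference 0.45, SE 0.26, adjusted p = 0.439), close to the background floor, with 5 control and 6 deficient arrays above a log2 level of 4. Derl1 read 10.01 ± 0.34 and 10.27 ± 0.30 (0.26, SE 0.17, adjusted p = 0.510), while its other 3 tested probesets differed by -0.0047, -0.0069 and -0.02. Derl2 read 11.76 ± 0.08 and 11.82 ± 0.12 (0.06, SE 0.08), with 0.25 (SE 0.14) in a second probeset. Edem1, which encodes a lectin that picks glycoproteins for destruction, differed by -0.03 (SE 0.15), its partner lectin gene Os9 by -0.01 (SE 0.14, and -0.44 with SE 0.35 in a second probeset), the ligase gene Syvn1 by -0.02 (SE 0.21, near the floor in both groups) and its adaptor gene Sel1l by 0.14 (SE 0.18). In this role 4 of 8 members were higher and 4 lower.

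Calnexin (Canx), the membrane-bound lectin that holds new glycoproteins while they fold, was the single member whose groups did not overlap. It ran from 11.58 to 11.72 in controls (median 11.67) and from 11.79 to 12.02 in deficient tumours (median 11.87). Every deficient array thus lay above every control, which held for 0.323% of all probesets tested, and in 0.496% the groups were apart in either direction. The means were 11.66 ± 0.05 and 11.89 ± 0.09, a difference of 0.23 (SE 0.08, 1.17-fold), and the limma adjusted p was 0.195. The other 2 Canx probesets differed by 0.40 (SE 0.16) and 0.36 (SE 0.13), on the same side. Over all alternatives the difference stayed between 0.19 and 0.33, and the adjusted p ran from 0.0329 to 0.989.

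Calreticulin (Calr), the soluble counterpart of calnexin in the lumen, read 12.21 ± 0.16 and 12.35 ± 0.06 (difference 0.14, SE 0.09, adjusted p = 0.493). Controls spanned 12.02 to 12.48 and contained the whole deficient range of 12.28 to 12.43. The probesets of this gene disagreed in size, since another read 10.51 ± 0.21 and 10.97 ± 0.17 (0.46, SE 0.12, adjusted p = 0.132) and the third differed by 0.12 (SE 0.09).

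**Figure D3:**
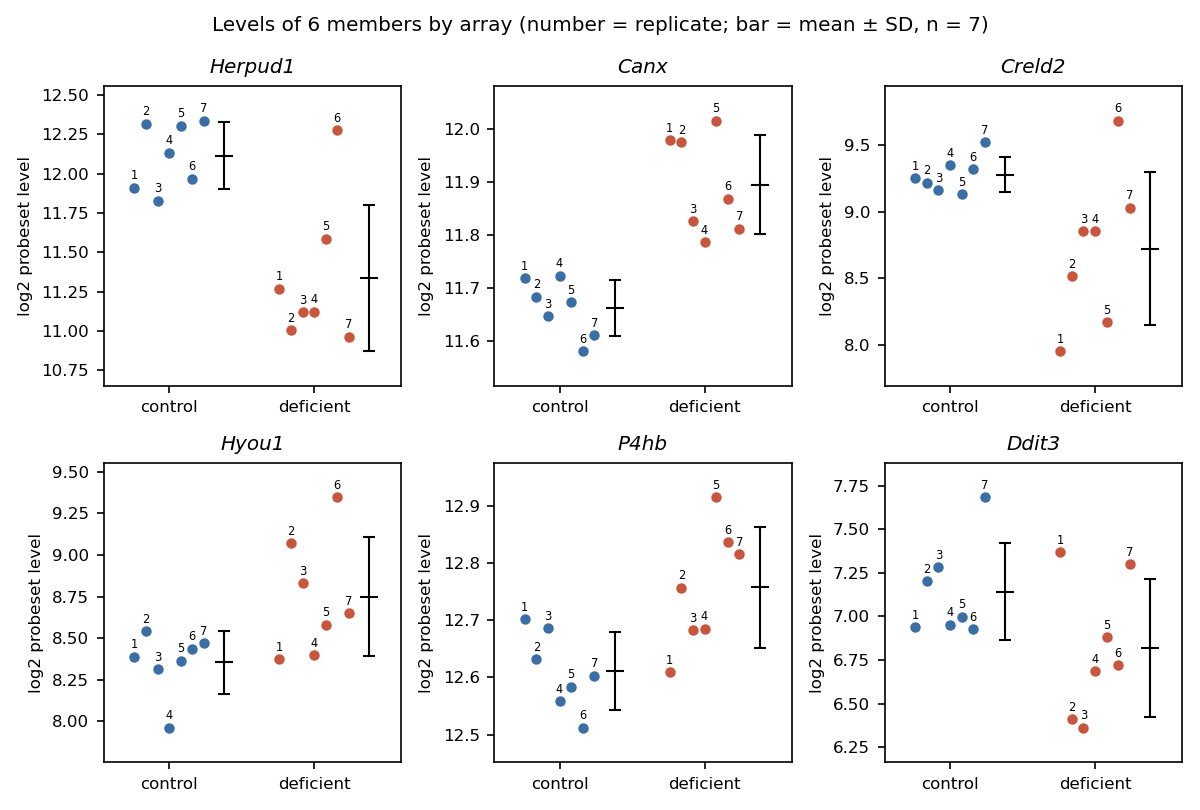
Log2 probeset levels of the 6 members with the smallest p, by array, with replicate numbers and mean ± SD (n = 7 per group). All 7 deficient arrays lie above the controls for Canx, and 6 of 7 lie below them for Herpud1 and for Creld2. Deficient 6 is the highest deficient array for Herpud1, Creld2 and Hyou1.

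Among the chaperones of the lumen, Creld2 and Hyou1 lay on opposite sides. Creld2, a stress-induced protein that assists disulphide bonding, ran from 9.13 to 9.52 in controls (median 9.25) and from 7.95 to 9.685 in deficient tumours (median 8.85). Of the deficient arrays 6 lay below every control, and deficient 6 lay above every control. The difference was -0.56 (SE 0.21, limma adjusted p = 0.253). It was -0.29 (adjusted p = 0.325) without deficient 1 and 5, the arrays with the lowest Creld2 values, 7.95 and 8.17. These arrays share a leading number in their descriptions. Leaving out the lowest values must shrink a negative difference, and this alternative was added with the data in view. The sign of the Creld2 difference held in 27 of 27 alternatives. Those on the filter, the variance model and the replicate block cannot move a difference.

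Hyou1, which encodes the large Hsp70-related chaperone that recharges BiP, ran from 7.96 to 8.54 in controls (median 8.39) and from 8.37 to 9.35 in deficient tumours (median 8.65). All deficient arrays were above the control mean and 5 were above every control. The difference was 0.40 (SE 0.15, adjusted p = 0.259), while a second tested probeset differed by 0.05 with an SE of 0.52.

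The main lumenal chaperones gave differences within their spread. BiP (Hspa5), the Hsp70 of the ER, read 12.09 ± 0.06 in controls and 12.15 ± 0.18 in deficient tumours (difference 0.06, SE 0.09, 95% interval -0.14 to 0.26, adjusted p = 0.811). Hsp90b1, which encodes the ER Hsp90 GRP94, read 10.40 ± 0.23 and 10.62 ± 0.29 (0.22, SE 0.14, adjusted p = 0.491), with -0.12 (SE 0.29) in its other probeset. Manf, a secreted stress-response protein gene, differed by 0.02 (SE 0.20) and Sdf2l1, whose product keeps BiP clients soluble, by -0.0073 (SE 0.39). The SD of Sdf2l1 was 1.09 in deficient tumours and 0.25 in controls.

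The co-chaperones that deliver clients to BiP and the disulphide isomerases were similar. Dnajb9 read 10.28 ± 0.08 and 10.35 ± 0.32 (difference 0.07, SE 0.13), Dnajc3 differed by 0.13 (SE 0.16) and Dnajb11 by -0.24 (SE 0.17). The less bright probesets of Dnajc3 differed by 0.02, 0.04, -0.39 and 0.28, so its direction depends on the probeset. Protein disulphide isomerase itself, encoded by P4hb, ran from 12.51 to 12.70 in controls (median 12.60) and from 12.61 to 12.92 in deficient tumours (median 12.76), a difference of 0.15 (SE 0.08, adjusted p = 0.409). Here 4 of 7 deficient arrays were above every control. Pdia3, the partner of the lectin chaperones, differed by 0.07 (SE 0.20), Pdia6 by -0.0076 (SE 0.18) and Pdia4 by -0.24 (SE 0.68). Deficient 1, at 3.89, was far under the other deficient arrays for Pdia4 (7.53 to 9.79), and without it the difference was 0.45.

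The tested sensors and transcription factors all had negative differences in their main probesets, with no call. Eif2ak3 read 8.16 ± 0.10 and 8.02 ± 0.28 (difference -0.14, SE 0.12, adjusted p = 0.632) and Atf6 differed by -0.08 (SE 0.26). All 3 probesets of Ern1 lay at the floor of about 2.15 in every array, so this sensor was not tested. Ddit3, which encodes the pro-apoptotic factor CHOP, ran from 6.93 to 7.68 in controls (median 7.00) and from 6.36 to 7.37 in deficient tumours (median 6.72), a difference of -0.32 (SE 0.18, adjusted p = 0.419). Of the deficient arrays 5 lay below every control, and deficient 1 and 7 lay within the control range. Xbp1 differed by -0.19 (SE 0.13), with -0.14, -0.29 and 0.01 in its other probesets. These probesets give total Xbp1 signal, and its splicing was not analysed here. Atf4 read 10.91 ± 0.28 and 10.74 ± 0.24 (-0.17, SE 0.14), with 0.20 (SE 0.13) in a second probeset, and it is controlled largely in translation.

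Genes that ATF4 and CHOP induce varied widely between arrays in both groups. Asns, the asparagine synthetase gene, read 10.76 ± 0.74 in controls and 10.83 ± 0.69 in deficient tumours (difference 0.07, SE 0.35, adjusted p = 0.949). Trib3, a pseudokinase gene that restrains this arm, read 6.17 ± 1.33 and 6.93 ± 0.72 (0.77, SE 0.52, adjusted p = 0.527). Chac1, which encodes a glutathione-degrading enzyme, read 4.27 ± 0.99 and 4.14 ± 1.25 (-0.13, SE 0.55), above a log2 level of 4 in 5 control and 3 deficient arrays. Ppp1r15a, which encodes GADD34, the factor that restarts translation, was above 4 in only 4 of 14 arrays (3.56 ± 0.33 and 3.83 ± 0.61) and was not tested. The translocon genes, whose channel lets new chains into the ER, differed by -0.02 (Sec61a1, SE 0.11, 12.26 ± 0.19 in controls and 12.24 ± 0.16 in deficient tumours) and -0.09 (Sec61b, SE 0.12).

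Variation among the deficient arrays was wider than among controls for most members. The SD was larger in deficient tumours for 24 of 33 members (72.7%), beside 69.4% of all probesets tested, so the members did not stand out in this. All 6 lumenal chaperones, all 3 DNAJ co-chaperones and all 4 disulphide isomerases were among them. Deficient 6 held the highest of the 14 values for 9 members and deficient 7 for 8, while deficient 1 held the lowest for 10. For Manf the values were 9.004 in deficient 1, 9.433 in deficient 5, 10.425 in deficient 7 and 10.511 in deficient 6, and the controls lay between 9.472 and 9.988. Sdf2l1 had the same order in these 4 arrays, from 4.55 in deficient 1 and 5.95 in deficient 5 to 6.82 in deficient 7 and 8.10 in deficient 6.

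**Figure D4:**
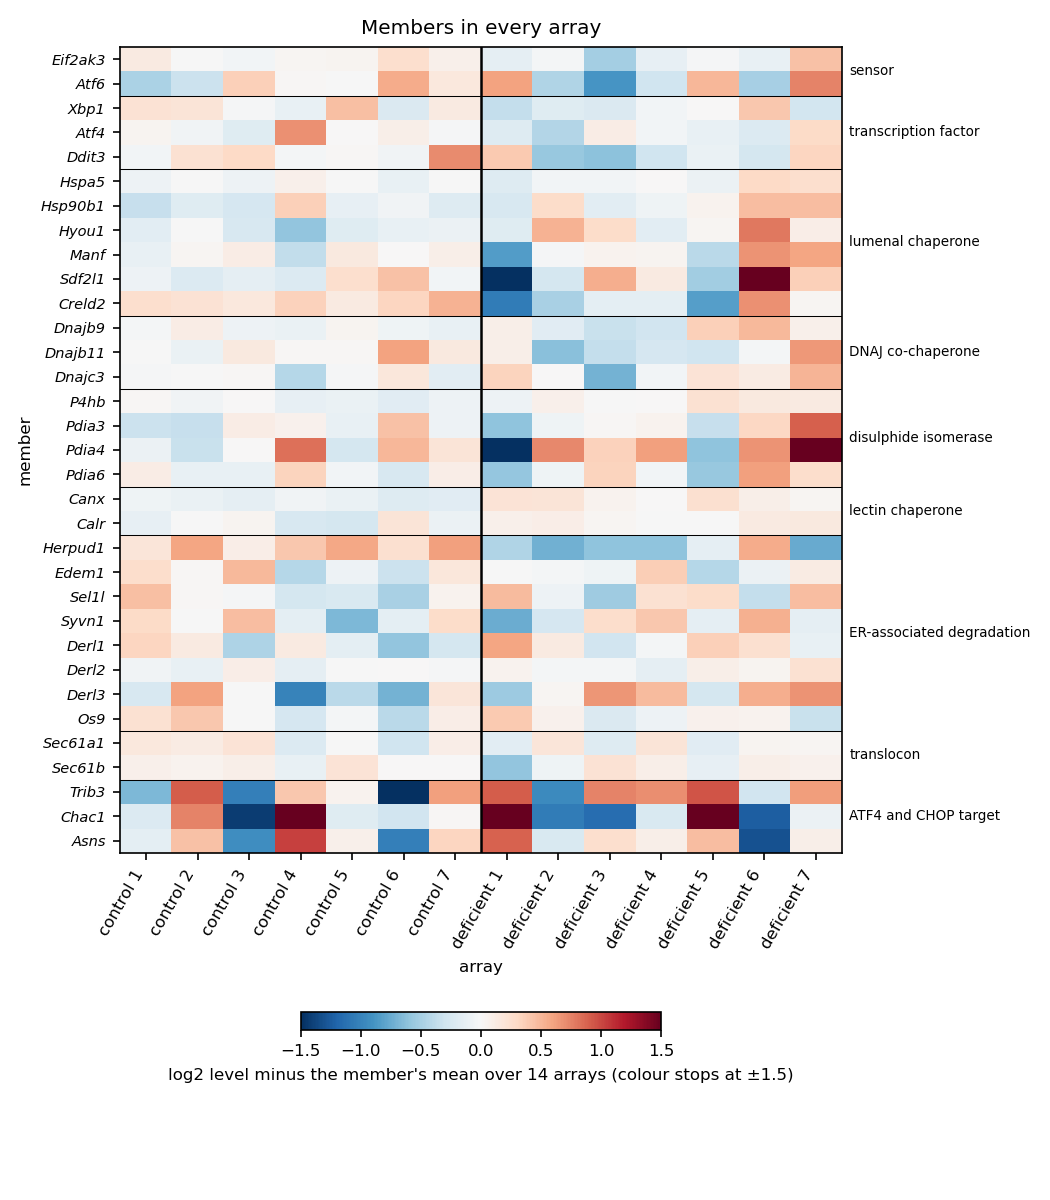
Log2 level of each tested member in every array, minus the member's mean over 14 arrays, with colours ending at ±1.5 and a black line between the groups. All 10 lumenal chaperones and disulphide isomerases are below their means in deficient 1 and above them in deficient 6 and 7, 7 of the 10 are below in deficient 5, where P4hb is at its highest, and the ATF4 and CHOP targets are high in control 4 and deficient 1 and 5.

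Correlation with Hspa5 across arrays was computed for the other 32 tested members after removing group means, with a permutation test within groups and Benjamini-Hochberg adjustment over the 32 pairs. Of the 32 correlations 23 were positive. Hsp90b1 passed by Pearson's r (r = 0.778, permutation p = 0.00152, adjusted p = 0.0486) and not by Spearman's rho (rho = 0.615, permutation p = 0.0357, adjusted p = 0.286). Creld2 had r = 0.849 and rho = 0.653 (permutation p = 0.00427 and 0.0324, adjusted p = 0.0683 and 0.286), Pdia6 r = 0.809 and rho = 0.669 (permutation p = 0.00805 and 0.0211, adjusted p = 0.0859 and 0.286), and Manf r = 0.803 and rho = 0.722 (permutation p = 0.013 and 0.00877, adjusted p = 0.104 and 0.281).

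The arrays farthest from the median of Hspa5 were deficient 6 and 7, and without them 0 members passed. The correlation was then 0.586 for Hsp90b1 (adjusted permutation p = 0.248), 0.643 for Creld2, 0.705 for Pdia6 and 0.428 for Manf. The relation of Hsp90b1 with Hspa5 thus did not pass without those arrays, and leaving out single arrays also ended the count of 1 in most cases, as with control 1 or deficient 2. Within the deficient group alone the values were 0.861 for Hsp90b1 (exact permutation p = 0.0127, n = 7) and 0.906 for Creld2 (exact permutation p = 0.00556, n = 7). Within controls they were 0.686 (exact permutation p = 0.0927, n = 7) and 0.190 (exact permutation p = 0.677, n = 7). Pdia6 had 0.823 within deficient tumours (exact permutation p = 0.0266, n = 7) and 0.726 within controls (exact permutation p = 0.0587, n = 7). The sign turned for several members. For Manf it went from 0.952 within deficient tumours (exact permutation p = 0.000794, n = 7) to -0.482 within controls (exact permutation p = 0.283, n = 7). For Sdf2l1 it went from 0.834 (exact permutation p = 0.0155, n = 7) to -0.515 (exact permutation p = 0.259, n = 7). Calr turned as these did, from 0.643 to -0.759. Asns turned the other way, from -0.792 (exact permutation p = 0.0234, n = 7) to 0.925 (exact permutation p = 0.00337, n = 7), as did Chac1 and Trib3. These exact p-values are not adjusted for the number of members, and most are of members with a high r over all arrays. The difference between the groups in these correlations was not tested, and Hspa5 itself spanned only 12.01 to 12.19 within controls. No leading number of the descriptions is shared by more than 5 arrays, and no correlation was computed within one. If arrays with the same number share an origin, the arrays are not fully independent. Over all 7770 other genes, those whose centred values over 14 arrays were most like Hspa5 were Khk (r = 0.871), Creld2 (r = 0.849) and Ostc (r = 0.835), given without a test. Khk encodes ketohexokinase and Ostc a subunit of the oligosaccharyltransferase complex.

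The tested ATF4 and CHOP targets followed a different set of arrays among deficient tumours, but rose with Hspa5 among controls. Correlations with Hspa5 within controls and within deficient tumours were 0.925 and -0.792 for Asns. They were 0.789 and -0.555 for Chac1, and 0.795 and -0.322 for Trib3. Asns was highest in control 4 (11.82), deficient 1 (11.68) and deficient 5 (11.26) and lowest in deficient 6 (9.49), and Chac1 read 6.00, 5.80, 5.91 and 2.97 in those arrays. With group means removed, Asns correlated at r = 0.781 with Chac1, at 0.770 with Trib3, at 0.440 with Atf4 and at -0.642 with Manf over 14 arrays. These pairs were chosen after their values were seen and are given without a test. Over all 528 pairs of tested members 15.5% had r above 0.5 and 5.87% below -0.5, beside 11% and 10.4% of pairs of all probesets tested.

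**Figure D5:**
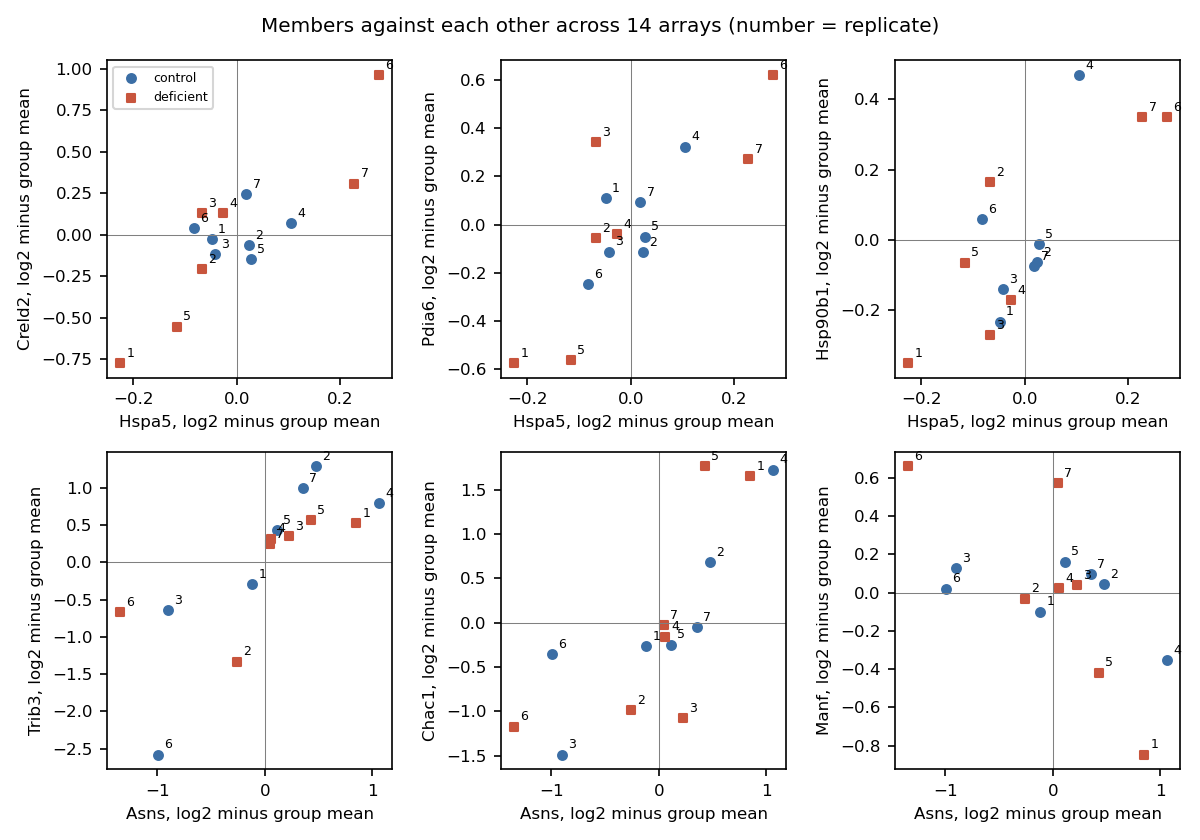
Levels of members against Hspa5 (upper row) and against Asns (lower row) in 14 arrays, in log2 units with the mean of each group removed, and replicate numbers beside the points. In the upper row deficient 1 lies lowest and deficient 6 and 7 highest for Hspa5, and in the lower row Trib3 and Chac1 are high where Asns is high, in control 4 and deficient 1 and 5.

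Further genes of the same pathways, listed by function, gave 0 calls at an adjusted p under 0.05, with the counts at an unadjusted p under 0.05 as follows. Among 30 tested genes of translocation and N-glycosylation 23 had a positive and 7 a negative difference, with 4 higher and 0 lower at an unadjusted p under 0.05, read beside 8.09% higher and 6.57% lower over all probesets. After quantile normalisation 21 were on the higher side. Their median difference was 0.10, beside 0.02 over all probesets. Ssr1 and Ssr3, subunits of the translocon-associated TRAP complex, differed by 0.39 (SE 0.12, limma adjusted p = 0.164) and 0.24 (SE 0.08, adjusted p = 0.210), Sec61a2 by 0.44 (SE 0.14, adjusted p = 0.180) and Kdelr2, a receptor that returns ER proteins from the Golgi, by 0.11 (SE 0.08). Per array, the list's mean level ran between 10.12 and 10.35 among controls and between 10.29 and 10.49 among deficient tumours, and in 7 of 7 deficient arrays it lay above the control mean.

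Among 29 genes of folding and glycan processing 12 were higher and 17 lower. At an unadjusted p under 0.05 stood 3 of them, 1 higher and 2 lower, beside 14.7% of all probesets tested. Ero1a, the oxidase that recharges disulphide isomerases and a gene also induced by low oxygen, differed by 0.61 (SE 0.17, adjusted p = 0.141). Sil1, the exchange factor of BiP, differed by -0.33 (SE 0.12), Txndc11 by -0.48 (SE 0.22) and the prolyl isomerase gene Ppib by -0.12 (SE 0.12). Of 19 further degradation genes 8 were higher and 11 lower, with 1 at an unadjusted p under 0.05, the ubiquitin-conjugating enzyme gene Ube2j1 (0.36, SE 0.09, adjusted p = 0.134). Beside it stood Man1b1 (-0.22, SE 0.12), Ube2g2 (-0.33, SE 0.18) and Ubxn4 (-0.11, SE 0.09).

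Among 36 genes of the amino acid response downstream of ATF4 15 were higher and 21 lower. At an unadjusted p under 0.05 stood 4 of them, 1 higher and 3 lower, again beside 14.7% of all probesets tested. Cebpb, a transcription factor gene that partners ATF4, read 9.10 ± 0.45 and 8.26 ± 0.31 (-0.85, SE 0.20, limma adjusted p = 0.126) and Jdp2 differed by -0.54 (SE 0.22). Psat1, of serine synthesis, differed by 0.65 (SE 0.26), and the stress gene Nupr1 by -0.35 (SE 0.22). Of 19 regulators of the response 11 were higher and 8 lower, 2 at an unadjusted p under 0.05, with Nck1 at -0.40 (SE 0.12), Atf6b at 0.33 (SE 0.13), Eif2ak4, the GCN2 kinase gene, at -0.24 (SE 0.13) and Tmbim6 at -0.0044 (SE 0.08).

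Markers of several cell types lay lower in deficient tumours, without a call after adjustment, and in bulk tumours fewer cells of a type and less RNA per cell cannot be told apart. The marker counts at an unadjusted p under 0.05, here and below, stand beside 14.7% of all probesets tested (8.09% higher, 6.57% lower). Club and secretory airway cells had 14 tested markers, of which 13 lay lower and 11 had an unadjusted p under 0.05, and their mean level per array ran between 9.43 and 11.84 among controls and between 7.83 and 9.50 among deficient tumours. Scgb1a1 differed by 0.06 (SE 0.11) and Cbr2 by -1.44 (SE 0.74). A further 3 missed the filter, namely Bpifb1 (7.77 ± 3.32 in controls and 3.04 ± 0.62 in deficient tumours), Reg3g (4.79 ± 2.42 and 2.20 ± 0.14) and Aldh3a1 (4.55 ± 1.29 and 3.12 ± 1.10). Since 7 arrays above 4 would pass the filter, not all control arrays were above 4 for these markers. All 4 tested ciliated markers were lower (3.47 to 7.57 in deficient tumours against 5.84 to 9.86 in controls), among them Tppp3 at -2.32 (SE 0.57) and Lrrc23 at -3.49 (SE 0.99), while Foxj1 (4.25 ± 1.68 in controls and 2.49 ± 0.51 in deficient tumours) and Dnah5 (2.56 ± 0.63 and 2.17 ± 0.05) missed the filter. Of 7 tested plasma cell markers 5 were lower (8.18 to 9.30 against 8.52 to 9.61), with Ighm, the heavy chain of IgM, at -1.85 (SE 0.55) and Sdc1 at 0.01 (SE 0.09), and the defining markers Tnfrsf17, at the floor, and Prdm1 (3.58 ± 0.22 and 4.08 ± 1.15) missed the filter. Fkbp11, named after its value was seen, lay higher by 0.73 (SE 0.31), 1 of the 3 plasma cell markers at an unadjusted p under 0.05. The part of airway and plasma cells in the lower Herpud1 and Creld2 values was not tested.

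Of 11 alveolar type II markers 8 were higher and 3 lower (median difference 0.03), which became 4 and 7 after quantile normalisation, with Sftpa1 at -0.04 (SE 0.10) and Sftpc at 0.04 (SE 0.09). Macrophage markers were lower in 10 of 11 (median -0.42, 3 at an unadjusted p under 0.05, Chil3 at -0.26 and Ctss at -0.28) and fibroblast markers in 10 of 11 (median -0.34, 3 at that level, Mgp at -0.14 and Col6a1 at -1.07). Endothelial markers were lower in 12 of 12 (median -0.61, 0 at that level in limma, Cd93 at -0.07 and Ramp2 at -1.20), and their mean level per array overlapped, from 7.65 to 8.86 in controls and 5.97 to 9.09 in deficient tumours. The part of these cells in the members' differences was not tested either.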

How the data were processed

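Total RNA from tumours, with 7 mice per group according to the series' design text and 7 arrays per group, was hybridised to Affymetrix mouse arrays as biotinylated cRNA, per the labels' protocols. The deposited table holds log2 levels per probeset, which the authors obtained by GCRMA (named in the submitters' processing notes without a version). GCRMA places dim probesets at a floor, and 43.9% of the values lay under 4. Control probesets and probesets not above 4 in at least 7 arrays were left out, which kept 12701 of 22690. The filter ignores the groups. The test was limma's (version 3.58.1, R 4.3.3), by lmFit and eBayes with 1 group term, two-sided. Values are means ± SD over 7 arrays, and precision is limited by that number. P-values measure the spread between these arrays, which may be partly technical, since the labels do not tie each array to its own mouse. The annotation of the platform may be out of date and gave 1 symbol for 20380 probesets, several for 691 and none for 1555. Correlations used 100000 permutations within groups, with numpy 2.4.6 and scipy 1.17.1.

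The members and gene lists were chosen with earlier results of these data known. Of 247 further listed genes 220 were matched. Named genes are all members, with group values for the 10 of smallest p and the brightest of each role, the 3 of smallest p and the brightest of each pathway list, the 2 brightest of each marker list, Epas1, and the 3 genes most like Hspa5. Sftpc is one of these markers. The methods were tested on simulated data. Alternatives covered the filter, normalisation, variance model, array weights, leading numbers, replicate numbers, RNA quality, threshold, choice of probeset and arrays left out. Protein sequences were not used here.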

Additional observations from a re-analysis of the deposited data

Results flagged for a closer look

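In 8 of 70 groups of 7 arrays, 1 array lay apart from the rest by more than Dixon's 95% criterion, which chance meets in about 1 of 20 groups. Control 4 did so for Atf4 (11.52, the others 10.65 to 10.92), for Hsp90b1 (10.87, the others 10.17 to 10.46) and, on the low side, for Hyou1 (7.96, the others 8.315 to 8.544). Control 6 was high for Dnajb11 (8.43, the others 7.725 to 7.978). Deficient 1 was low for Pdia4 (3.89, the others 7.53 to 9.79) and for Sec61b (11.53, the others 12.00 to 12.33). For Ern1, control 3 (2.158) and deficient 3 (2.163) stood above the other arrays (2.153 to 2.155), a gap of no use at the background floor.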

How the results depend on the processing

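With 0 members past the threshold, no call was there to lose. Of 888 combinations of a member with an alternative, 802 kept the direction and the side of the threshold, 4 gained a call and 82 turned the sign of a difference that had not passed. For 18 of 33 members the sign held under every alternative run. Alternatives on the filter, the variance model and the replicate block cannot move a difference, so part of these counts was set in advance. No alternative took another single probeset. Some other probesets of Dnajc3, Derl1, Hsp90b1 and Xbp1, which are among the 18, had differences of the opposite sign. The median difference over members ran from -0.03 to 0.07. Array weights gave 2 members (Herpud1 at -0.90 and Canx at 0.22), 8 at an unadjusted p under 0.05 and 1900 probesets. Herpud1 also passed without deficient 6 (-0.94) and without deficient 3 and 6 (-0.92, 1 member). With 1 array left out the count of members was 0 to 1, of members at an unadjusted p under 0.05 4 to 7 (7 without deficient 1 or 7), of probesets 0 to 85 and of members correlated with Hspa5 0 to 3. The 85 arose without control 4, 30 without deficient 6, 13 without deficient 7, 11 without deficient 1, 1 without control 2, 5, 6 or 7 and 0 without deficient 2 or 4. Against 5 probesets, there were 11 at a threshold of 0.10, 0 with no filter, 9 with a trended robust variance, 0 with the leading numbers as a random block, 2 with the replicate block, 32 without deficient 3 and 6, 0 without deficient 2 and 4 and 289 without deficient 1 and 5. The last alternative was added with the data in view. Against 1 member correlated with Hspa5, quantile normalisation gave 2, and leaving out deficient 6 and 7, or deficient 1 and 5, gave 0. It was 3 without deficient 3, 1 without control 4, control 6 or deficient 7, and 0 without any other array. The cause of these changes was not tested.

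Same-numbered replicates of the groups did not deviate together (r from -0.23 to 0.22 over 7 pairs, 0 arrays closest to their own number). This gave no sign that the numbers pair the arrays, though 7 pairs are too few to exclude it. The replicate block left 0 members past the threshold (Herpud1 adjusted p = 0.222).

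Signs turned as follows. Quantile normalisation gave Manf -0.0080, Sdf2l1 0.022 and Syvn1 0.068. Median centring gave Sdf2l1 0.0064 and Pdia6 0.0061. Array weights gave Sdf2l1 0.16, Dnajb9 -0.027, Pdia4 0.47, Pdia6 0.059, Syvn1 0.21, Sec61a1 0.0084 and Asns -0.24. The random block gave Sdf2l1 0.0067 and Asns -0.028, and the 3' to 5' covariate Os9 0.027. Without deficient 3 and 6 came Atf6 0.18, Manf -0.11, Os9 0.016, Sec61a1 0.0042 and Chac1 0.32. Without deficient 2 and 4 came Atf6 0.053, Sdf2l1 0.017, Pdia6 0.012 and Chac1 0.099. Without deficient 1 and 5 came Sdf2l1 0.48, Dnajb9 -0.011, Pdia4 0.68, Pdia6 0.22, Edem1 0.045, Syvn1 0.15, Sec61a1 0.040, Sec61b 0.034 and Asns -0.18. The mean of all probesets gave Atf4 0.016, Pdia6 0.091 and Sec61a1 0.0017. With single arrays left out, ranges that crossed 0 were Pdia6 -0.11 to 0.089, Edem1 -0.11 to 0.045, Syvn1 -0.13 to 0.10, Os9 -0.083 to 0.052, Sec61a1 -0.074 to 0.010, Asns -0.095 to 0.29, Manf -0.085 to 0.17, Chac1 -0.42 to 0.16, Sdf2l1 -0.28 to 0.31, Atf6 -0.21 to 0.059, Pdia4 -0.54 to 0.45, Sec61b -0.13 to 0.0010, Dnajb9 -0.0095 to 0.13 and Pdia3 -0.071 to 0.18.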
